A study of Homo sapiens with 6 samples.

Results

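The enzymes of cholesterol synthesis and of fatty acid synthesis, with the proteins that control them, were examined step by step in cells treated with sorafenib, an oral drug for liver cancer that blocks several kinases, RAF among them. The 36 genes were taken by symbol from tables of 34690 gene symbols, and all 36 were found. The treated cells were SNU761, an established hepatocellular carcinoma line, given sorafenib for 24 h, and the control cells were SNU761 given DMSO alone for the same time. There were 3 arrays in each group, numbered 1 to 3. The labels print the sorafenib dose as 3 mM, far above doses usual in culture, so its unit is uncertain. They do not say whether replicates came from separate cultures, so that p-values measure only the spread between these samples.

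Cholesterol is built from acetyl-CoA through mevalonate and farnesyl diphosphate to squalene, which is closed into the first sterol, lanosterol, and then trimmed to cholesterol. Most of these enzymes are switched on together by the transcription factor SREBP2 (SREBF2), which SCAP escorts out of the endoplasmic reticulum when sterols are scarce and which INSIG proteins hold back when sterols are plentiful. SREBP1 (SREBF1) drives the enzymes that make, lengthen and desaturate fatty acids. Liver cells run both pathways at a high rate.

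Levels are given as normalized log2 intensity, on which 1 unit is a doubling, and arrays that share a number form a pair. A difference is sorafenib minus control on that scale, and a value with ± is the mean and SD over the 3 pairs. The arrays numbered 3 stood apart: they correlated at only 0.793 to 0.833 with the other arrays over tested symbols. All 6 are labelled SNU761, and whether the arrays numbered 3 came from another line or batch was not tested, which bears on every mean and p-value over the 3 pairs. Of the hepatocyte markers, APOA2 had log2 levels of 15.67, 14.44 and 5.32 in sorafenib cells of numbers 1, 2 and 3, against 15.69, 14.56 and 5.45 in control cells. APOA1, TTR and GPC3 were likewise near background on both arrays numbered 3, while ALB was highest there, at 14.05 in sorafenib and 14.43 in control cells. The summed intensity of the 10 hepatocyte markers was 34213 to 130662 in sorafenib arrays and 38676 to 141471 in control arrays, lowest at number 3 in each group. That of 8 blood cell markers was 1130 and 1446 on the other sorafenib arrays and 23724 on number 3, against 1353 and 1515 on the other control arrays and 18170 on number 3. RAC2 alone was at 14.51 in sorafenib and 14.03 in control cells of number 3, while PTPRC, CD53 and CD3E were near background on all 6 arrays. The 7 markers of fibroblasts and stellate cells summed to 1319 and 1585 on the other sorafenib arrays and 7919 on number 3, against 1725 and 1830 on the other control arrays and 9160 on number 3. Of 5 endothelial markers at most 1 was detected on any array, with sums of 622 to 986 in sorafenib and 667 to 1319 in control arrays. The part of these differences in the enzyme levels was not tested. In cells sampled in bulk, fewer cells of a type and less RNA per cell cannot be told apart.

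Sorafenib-treated cells had lower levels of most enzymes of both pathways, by 1.16 on the log2 scale for HMGCS1 at the start of cholesterol synthesis and 0.87 for SQLE in its middle, the 2 that passed in an exploratory paired fit. Of the 36 genes, 34 passed the detection filter, and 30 of these 34 averaged below 0. Their median difference was −0.40, against −0.00042 over all 14641 symbols tested, and it was −0.36, −0.29 and −0.52 in pairs 1, 2 and 3. In all 3 pairs 22 of 34 (64.7%) were lower, against 22.2% of all tested symbols, and 2 of 34 (5.88%) were higher, against 21.5%. In 5 of 34 (14.7%) the sorafenib arrays lay wholly below the control arrays, against 3.25% of all tested symbols.

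Gene by gene, the evidence was weaker. With limma and the replicate number as a block, 0 of 14641 symbols (0%) passed an adjusted p of 0.05, and the lowest adjusted p of a pathway gene was 0.111. At an unadjusted p under 0.05 that fit had 17 of 34 pathway genes lower and 0 higher, against 10% of all tested symbols lower. A second blocked fit (the paired trended fit), which lets the variance follow the level and damps outlying variances, was chosen with earlier results known and is exploratory. It called 2 of the 34 lower (5.88%) and 0 higher, against 0.458% of all tested symbols lower and 0.505% higher. Without the arrays numbered 3 it called 6 of 34 lower (17.6%), against 5.01% of all tested symbols. With only 2 pairs left, those p-values rest largely on variance shared across symbols. On the same arrays the replicate-block fit called 0 of 34 pathway genes (lowest adjusted p = 0.0679) and 320 of 14641 symbols. Adjusted p-values given with the genes are from limma's paired trended fit. Both calls were lost, with 0 of 34 called, without the replicate block, with a background drawn from every symbol, or without replicate 2, and 1 remained without replicate 1 or without the detection filter.

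**Figure D1:**
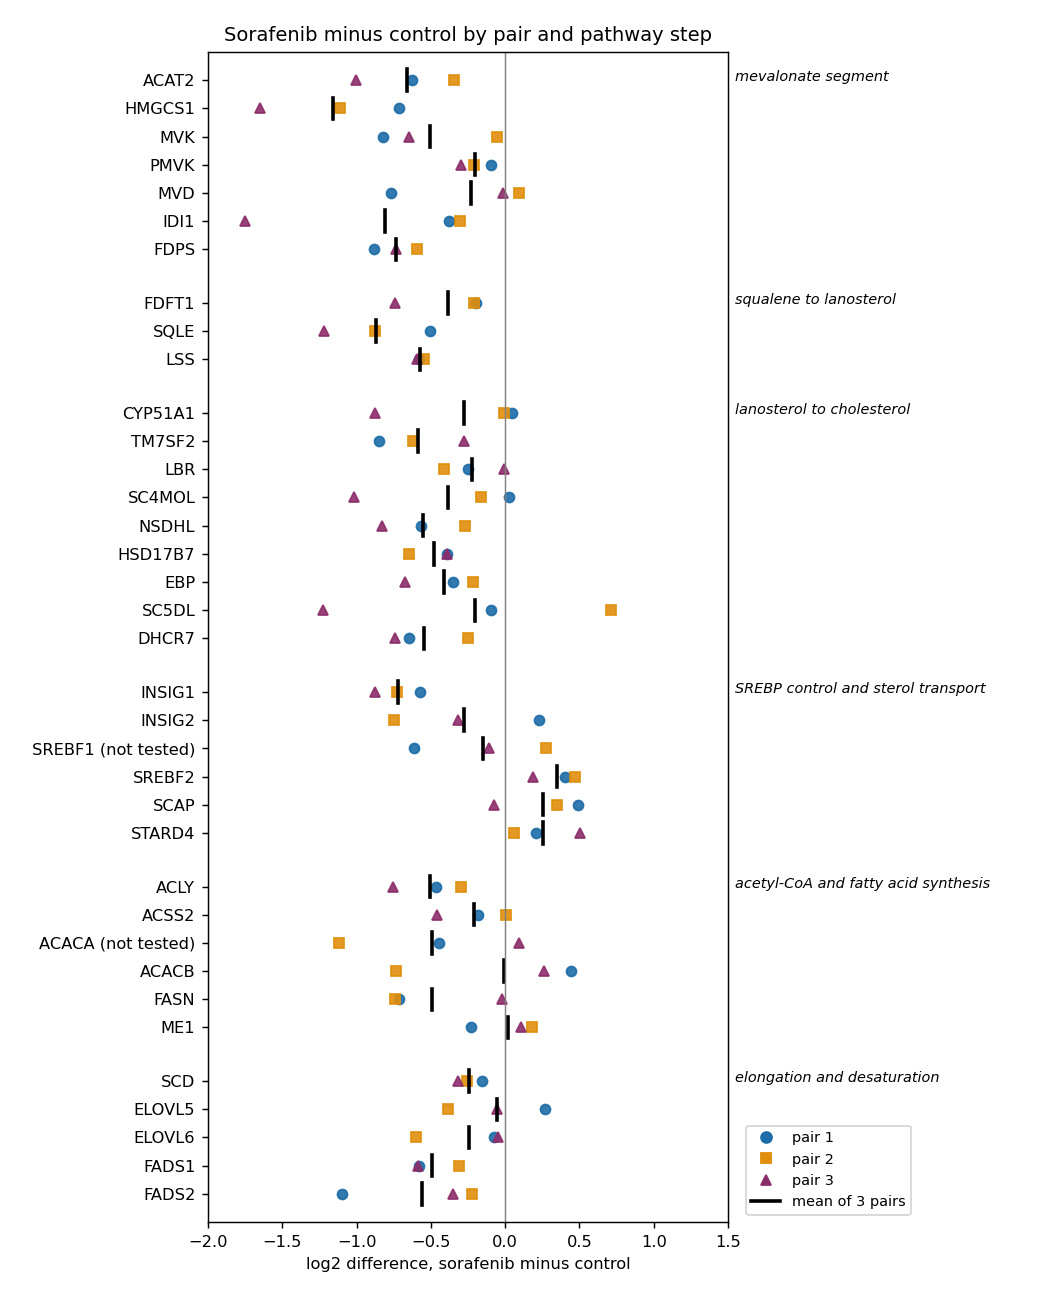
Log2 difference, sorafenib minus control, for each of the 36 genes (rows, in pathway order) in pairs 1, 2 and 3 (points) with the mean of the 3 pairs (bar). All 19 cholesterol synthesis enzymes have a mean below 0, while SREBF2, SCAP and STARD4 lie above 0.

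The first segment of the pathway, from acetyl-CoA to farnesyl diphosphate, had a median difference of −0.66 over 7 tested enzymes. In all pairs 6 of these (85.7%) were lower, against 22.2% of all tested symbols. HMGCS1, which joins acetyl-CoA to acetoacetyl-CoA, gave deposited intensities of 9434, 4570 and 1937 in sorafenib cells of numbers 1, 2 and 3, against 15619, 11101 and 5998 in control cells. After normalization its log2 level was 13.09, 12.32 and 10.87 in sorafenib cells, against 13.80, 13.43 and 12.51 in control cells. Each sorafenib array was below its partner, but the groups overlapped because the level itself differed between replicate numbers, lowest at number 3. HMGCS1 fell by 1.16 ± 0.47 (95% interval −1.55 to −0.77; adjusted p = 0.0384, and 1.37e-05 to 1.00 over 10 alternatives), to 44.8% of its control level. It ranked 78th from the lowest of 14641 symbols. ACAT2, the cytosolic thiolase that makes acetoacetyl-CoA, had levels of 11.35, 11.37 and 10.37 in sorafenib cells, against 11.98, 11.71 and 11.37 in control cells. Its groups did not overlap, the highest sorafenib array lying just under the lowest control array, and its difference was −0.66 ± 0.33 (adjusted p = 0.088).

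The next steps were lower by unequal amounts. FDPS, which makes farnesyl diphosphate, had levels of 10.28, 11.25 and 10.94 in sorafenib cells, against 11.16, 11.84 and 11.68 in control cells. Its difference was among the steadiest of the segment, at −0.88, −0.59 and −0.73 in the 3 pairs (mean −0.74 ± 0.15; adjusted p = 0.0576), and it passed without replicate 3 (adjusted p = 0.0129). IDI1, which isomerizes the activated isoprene unit, had levels of 10.10, 10.88 and 9.55 in sorafenib cells, against 10.47, 11.18 and 11.30 in control cells. Most of its mean difference of −0.81 ± 0.82 came from pair 3, at −1.75, against −0.37 and −0.30 in pairs 1 and 2. The kinases and the decarboxylase that prepare mevalonate for that step differed less. MVK was at −0.51 ± 0.40 and PMVK at −0.20 ± 0.10, each lower in all 3 pairs. MVD was at −0.77, 0.09 and −0.02 in pairs 1, 2 and 3, so that pair 1 alone carried its mean, which was 0.038 without replicate 1. MVK moved to −0.11 with a background drawn from every symbol.

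**Figure D2:**
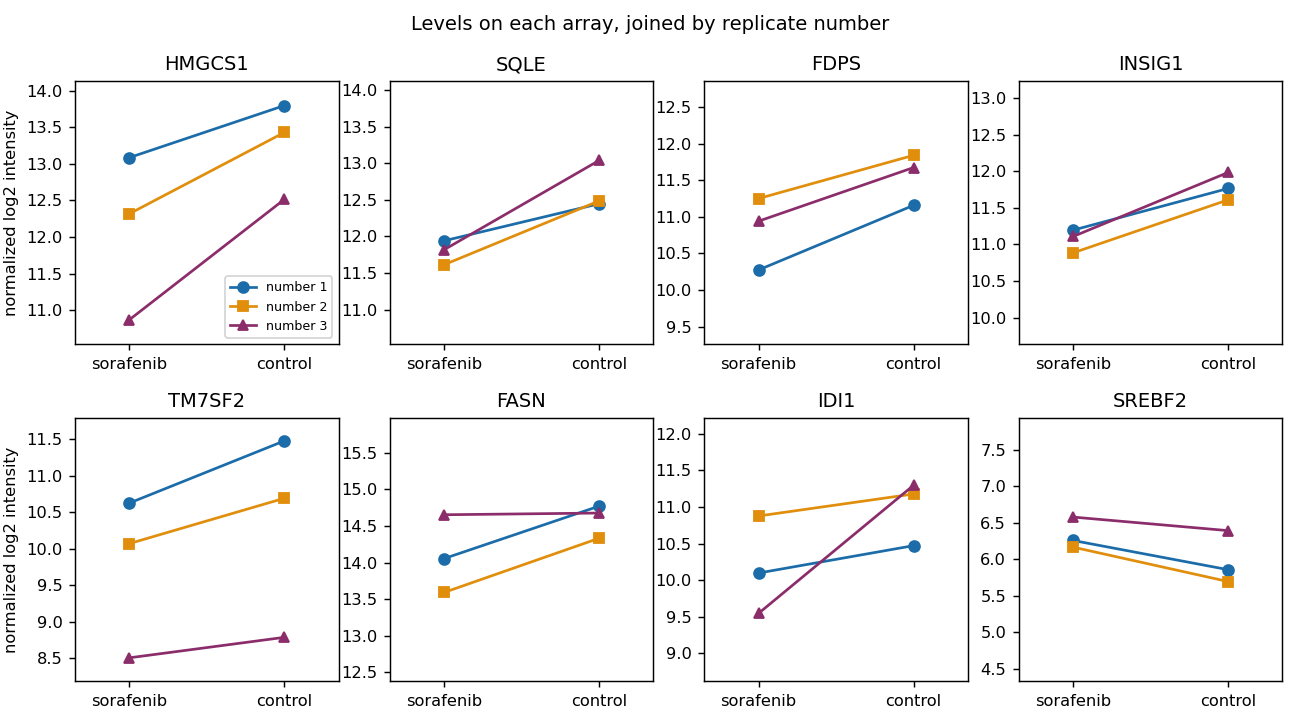
Normalized log2 intensity of 8 genes on each array, with sorafenib left and control right in each panel, lines joining arrays of the same number, and every panel spanning the same number of log2 units. Lines rise towards control for HMGCS1, SQLE, FDPS, INSIG1, TM7SF2 and IDI1, the FASN line of number 3 is nearly flat, and those of SREBF2 run the other way.

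The 3 enzymes from farnesyl diphosphate to lanosterol were all lower in every pair, against 22.2% of all tested symbols, with a median of −0.57. SQLE, squalene epoxidase, gave deposited intensities of 4450, 2775 and 3674 in sorafenib cells, against 6162, 5620 and 8595 in control cells. Its log2 level was 11.94, 11.61 and 11.82 in sorafenib cells, against 12.45, 12.49 and 13.04 in control cells. The groups did not overlap. SQLE fell by 0.87 ± 0.36 (95% interval −1.22 to −0.51; adjusted p = 0.0469, and 0.00576 to 1.00 over 10 alternatives), with its widest difference in pair 3. LSS, which closes the sterol rings, had the most even difference of the 3, at −0.58, −0.55 and −0.60 in pairs 1, 2 and 3 (adjusted p = 0.107). FDFT1, squalene synthase, was at −0.38 ± 0.31, with −0.74 in pair 3 against −0.20 and −0.21 in pairs 1 and 2.

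All 9 enzymes from lanosterol to cholesterol averaged below 0, with a median of −0.41. In all pairs 6 (66.7%) were lower, against 22.2% of all tested symbols. None passed over the 3 pairs in the paired trended fit, which called 0.458% of all tested symbols lower. In the replicate-block fit 5 of the 9 were lower at an unadjusted p under 0.05, against 10% of all tested symbols. TM7SF2 and LBR can each reduce the sterol double bond left by CYP51A1. TM7SF2 had levels of 10.62, 10.07 and 8.51 in sorafenib cells, against 11.48, 10.69 and 8.79 in control cells, and each sorafenib array was below its partner. Its difference was −0.58 ± 0.29 (adjusted p = 0.132), and −0.74 without replicate 3 (adjusted p = 0.0199). LBR, which is also a receptor of the nuclear lamina, was at −0.22 ± 0.20 and −0.06 with a background drawn from every symbol; whether the pair of reductases differed was not tested. HSD17B7, a ketosteroid reductase, was at −0.48 ± 0.15, with its sorafenib levels of 9.77 to 10.13 wholly below its control levels of 10.16 to 10.78. NSDHL, which works on the same carbon, was at −0.56 ± 0.28, the isomerase EBP at −0.41 ± 0.24, and DHCR7, a last reductase of the pathway, at −0.54 ± 0.26.

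The other 3 late enzymes were split by pair. CYP51A1, which removes a methyl group from lanosterol, had levels of 8.73, 11.71 and 10.83 in sorafenib cells, against 8.69, 11.72 and 11.70 in control cells. The array numbered 1 was the lowest of each group, and only pair 3 showed a clear difference, at −0.88. SC4MOL, the methylsterol oxidase now named MSMO1, was at 0.03, −0.16 and −1.01 in pairs 1, 2 and 3. SC5DL, the sterol desaturase now named SC5D, was at −0.09, 0.71 and −1.22, and averaged 0.31 without replicate 3. Pair 3 was lower than the mean of pairs 1 and 2 for 14 of the 19 cholesterol enzymes, and for 4 of the 10 tested fatty acid enzymes. With 1 array of each kind per number, that difference between pairs was not tested. The matching share of all tested symbols is not given here, so these counts set neither group apart from other genes. Over the 34 tested genes the differences of pairs 1 and 2 correlated at 0.34, those of pairs 1 and 3 at 0.39 and those of pairs 2 and 3 at 0.20 (Pearson's r across genes, which are not independent), against 0.53, 0.34 and 0.31 over all tested symbols.

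**Figure D3:**
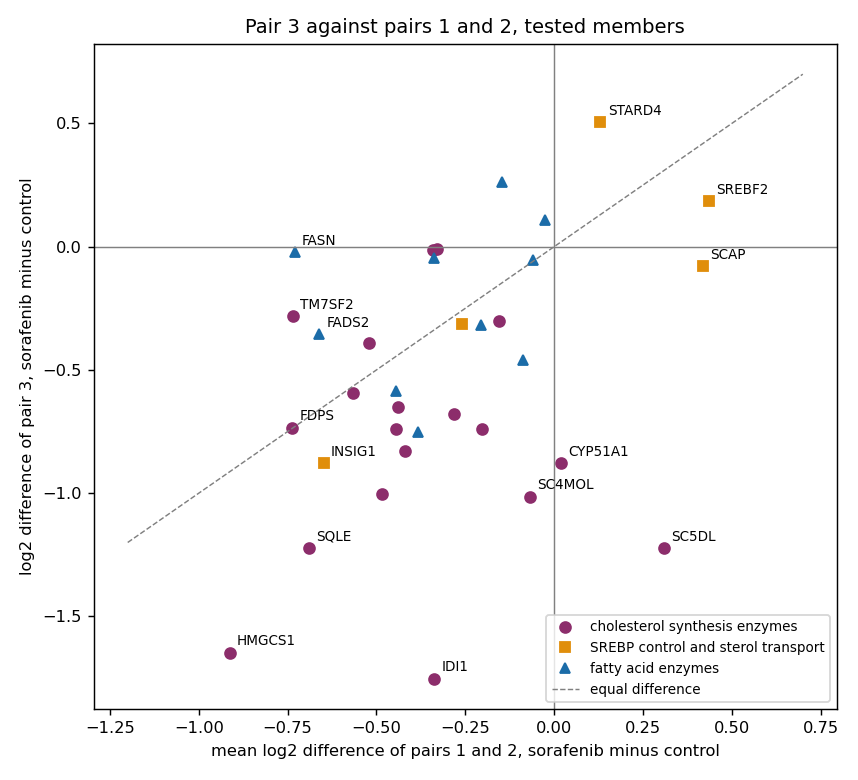
Log2 difference in pair 3 against the mean log2 difference of pairs 1 and 2 (sorafenib minus control) for the 34 tested genes, coloured by group, with a dashed line where the values would be equal. IDI1, SC5DL, SC4MOL and CYP51A1 lie far below the line at −1.75, −1.22, −1.01 and −0.88 in pair 3, and FASN lies above it at −0.02.

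The proteins that control SREBP did not share one direction. INSIG1, which holds SCAP in the endoplasmic reticulum and is itself a sterol-regulated target gene, had levels of 11.20, 10.89 and 11.11 in sorafenib cells, against 11.77, 11.61 and 11.99 in control cells. The groups did not overlap, and the difference was even, at −0.57, −0.73 and −0.88 in pairs 1, 2 and 3 (mean −0.72 ± 0.15; 95% interval −1.05 to −0.40; adjusted p = 0.0566, and 0.0249 without replicate 3). Its paralog INSIG2 was at 0.23, −0.75 and −0.31, with no direction shared by the pairs (adjusted p = 0.5). SREBF2, the main activator of the pathway, had levels of 6.26, 6.17 and 6.58 in sorafenib cells, against 5.86, 5.70 and 6.39 in control cells. It was higher in all 3 pairs, at 0.35 ± 0.15 (adjusted p = 0.338), but lay near background, was detected on 2 of 3 control arrays, and was at 0.01 with a background drawn from every symbol. SCAP was at 0.49, 0.35 and −0.08 in pairs 1, 2 and 3 (adjusted p = 0.367). STARD4, a carrier of cholesterol between membranes, was at 0.26 ± 0.23 and was detected on 2 of 3 sorafenib and 1 of 3 control arrays; with a background drawn from every symbol it too was at 0.01. SREBF1 was detected on 1 of 3 arrays in each group and was not tested. Its differences were −0.62, 0.28 and −0.11.

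The fatty acid enzymes had a median difference of −0.24 over 10 tested members, of which 9 averaged below 0, against 50% of all tested symbols. In all pairs 6 (60%) were lower and 0 higher, against 22.2% and 21.5% of all tested symbols. Over the 3 pairs 0 passed in the paired trended fit, which called 0.458% of all tested symbols lower. ACLY, which splits citrate into the acetyl-CoA that feeds both pathways, had levels of 12.54, 12.56 and 12.04 in sorafenib cells, against 13.01, 12.86 and 12.79 in control cells. The groups did not overlap, and its difference was −0.51 ± 0.23 (adjusted p = 0.0866). ACSS2, which makes acetyl-CoA from acetate, was at −0.21 ± 0.24. It was detected on 2 of 3 arrays in each group, and on neither array numbered 3. FASN, the fatty acid synthase, had levels of 14.05, 13.59 and 14.65 in sorafenib cells, against 14.77, 14.33 and 14.68 in control cells. Pairs 1 and 2 were alike at −0.72 and −0.74, and pair 3 was at −0.02. The mean of −0.49 ± 0.41 did not pass (adjusted p = 0.109). With pairs 1 and 2 alone FASN passed in the paired trended fit (adjusted p = 5.37e-06), while no pathway gene passed in the replicate-block fit. Of the acetyl-CoA carboxylases, ACACA, the cytosolic form, had a detection p under 0.05 on 0 of 6 arrays and was not tested, although its log2 level was 8.79 to 10.69 in sorafenib and 9.91 to 10.60 in control cells. It was at −0.44, −1.12 and 0.09 in pairs 1, 2 and 3. ACACB, the mitochondrial form, was at 0.44, −0.73 and 0.26, and the NADPH-producing enzyme ME1 at 0.02 ± 0.22.

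Among the enzymes that lengthen and desaturate fatty acids all 3 desaturases were lower in each pair, as was 1 of 2 elongases. FADS1, the delta-5 desaturase, had deposited intensities of 6140, 5044 and 3811 in sorafenib cells of numbers 1, 2 and 3, against 8903, 6906 and 5803 in control cells. Each sorafenib array was below its partner while the groups overlapped, and the log2 difference was −0.49 ± 0.16 (adjusted p = 0.0832). FADS2, the delta-6 desaturase, was at −1.10, −0.23 and −0.35 in pairs 1, 2 and 3, and its mean of −0.56 was −0.08 with a background drawn from every symbol. SCD, which makes monounsaturated fatty acids, was among the brightest symbols and differed by −0.24 ± 0.08, lower in all pairs (95% interval −0.41 to −0.08; adjusted p = 0.124). ELOVL6, which extends saturated chains, was lower in all pairs, at −0.07, −0.60 and −0.05, and its mean of −0.24 was −0.060 without replicate 2 and −0.075 with a background drawn from every symbol. ELOVL5, which extends polyunsaturated chains, was at 0.27, −0.39 and −0.06.

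Promoters are shown for the genes that passed with or without replicate 3 (4 of the 6 are shown). That of SREBF2, whose level did not pass, was added because it held a match to the sterol response element. Sequences are from RefSeq on GRCh38.p14, run 5′ to 3′ on the gene's strand from 250 bases before to 50 bases after the gene start, and carry capitals at matches, on either strand, to the NF-Y box CCAAT, the Sp1 box GGGCGG and the sterol response element TCACNCCAC. HMGCS1 lies on the minus strand at chr5:43313363-43313662, and the others on the plus strand, FDPS at chr1:155308616-155308915, TM7SF2 at chr11:65111622-65111921, INSIG1 at chr7:155297628-155297927 and SREBF2 at chr22:41832855-41833154.
HMGCS1: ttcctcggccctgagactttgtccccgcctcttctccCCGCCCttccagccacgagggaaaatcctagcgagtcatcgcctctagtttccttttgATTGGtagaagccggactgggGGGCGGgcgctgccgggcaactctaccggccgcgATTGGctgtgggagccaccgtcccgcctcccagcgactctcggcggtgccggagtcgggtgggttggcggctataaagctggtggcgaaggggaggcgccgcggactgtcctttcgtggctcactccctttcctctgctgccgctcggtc
FDPS: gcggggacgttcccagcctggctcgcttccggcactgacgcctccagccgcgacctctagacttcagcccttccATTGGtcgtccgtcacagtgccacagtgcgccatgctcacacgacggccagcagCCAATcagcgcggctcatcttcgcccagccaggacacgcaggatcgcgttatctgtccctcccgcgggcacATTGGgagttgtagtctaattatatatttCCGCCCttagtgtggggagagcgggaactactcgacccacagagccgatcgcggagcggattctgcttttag
TM7SF2: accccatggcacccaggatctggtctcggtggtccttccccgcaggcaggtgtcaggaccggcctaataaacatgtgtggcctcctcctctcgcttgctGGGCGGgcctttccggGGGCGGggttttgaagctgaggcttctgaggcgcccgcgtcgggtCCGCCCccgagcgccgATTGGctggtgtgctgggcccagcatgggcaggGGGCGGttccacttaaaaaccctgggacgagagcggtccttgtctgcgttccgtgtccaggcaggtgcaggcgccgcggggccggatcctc
INSIG1: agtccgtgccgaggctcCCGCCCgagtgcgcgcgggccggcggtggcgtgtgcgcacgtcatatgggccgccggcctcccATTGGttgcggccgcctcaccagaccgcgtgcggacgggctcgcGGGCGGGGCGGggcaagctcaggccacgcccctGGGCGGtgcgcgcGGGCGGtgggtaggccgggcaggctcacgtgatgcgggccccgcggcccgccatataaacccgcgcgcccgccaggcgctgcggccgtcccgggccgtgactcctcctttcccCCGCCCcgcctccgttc
SREBF2: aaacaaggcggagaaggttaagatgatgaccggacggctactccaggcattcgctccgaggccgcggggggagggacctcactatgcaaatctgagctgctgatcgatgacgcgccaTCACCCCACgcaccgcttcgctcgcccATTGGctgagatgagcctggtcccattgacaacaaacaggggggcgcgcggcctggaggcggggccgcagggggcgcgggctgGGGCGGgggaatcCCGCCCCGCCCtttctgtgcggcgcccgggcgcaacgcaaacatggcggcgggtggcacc
HMGCS1 carried NF-Y matches that start 155 and 100 bases before the gene start, with an Sp1 match between them that starts at 134. FDPS carried 3 NF-Y matches, and TM7SF2 and INSIG1 carried 1 each, with 4 and 6 Sp1 matches. SREBF2 was the only 1 of the 32 genes matched in the table with the sterol response element spelled this way, 133 bases before its start.

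The NF-Y box was present in 12 of 16 promoters of cholesterol enzymes (75%), against 40% of 10 for fatty acid enzymes, 21.4% of 14 for fatty acid oxidation and ketone synthesis, and 34.6% of 35114 promoters of that length. Among tested genes it was present in 12 of 18 promoters of those lower in all pairs and in 7 of 12 of the rest. The Sp1 box was present in 84.4% of the 32, against 71.4% of 14 for fatty acid oxidation and ketone synthesis and 45% of all promoters. Among tested genes it was present in 83.3% of 18 promoters of those lower in all pairs and in 83.3% of 12 of the rest. The E-box CACGTG was present in 15.6% of the 32 against 7.26% of all promoters, and TCACNCCAC in 3.12% against 1.13%. The promoters compared were not matched for GC content. Neighbouring Sp1 matches may overlap each other. A match is a description of letters, not of a site in use, and no match says only that these letters are not in this window.

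Genes around these pathways, in lists written with earlier results known, had medians of −0.17 to 0.19. In the paired trended fit 0 of their members passed, against 0.458% of all tested symbols called lower and 0.505% higher. With shares that low, 0 calls in lists of this size says little about these genes. Whether they differed from the synthesis enzymes was not tested. The 8 genes that lead farnesyl diphosphate into coenzyme Q, dolichol and prenylated proteins had a median of 0.19. In all pairs 3 (37.5%) were higher and 0 lower, against 21.5% and 22.2% of all tested symbols. PDSS2, a subunit of the enzyme that makes the tail of coenzyme Q, had levels of 10.20, 10.37 and 10.25 in sorafenib cells, against 9.56, 9.63 and 9.73 in control cells. Its groups did not overlap, and its difference was 0.63 ± 0.11 (adjusted p = 0.0957). GGPS1, which makes geranylgeranyl diphosphate, was the lowest of these at −0.13 ± 0.33. Genes of SREBP processing had a median of 0.03 over 6 tested, and in all pairs 3 (50%) were higher and 1 (16.7%) lower. That 1 was MBTPS1, the site-1 protease, the lowest at −0.46 ± 0.47. Genes of sterol transport, esterification and efflux had a median of 0.12 over 13 tested. Of them LIPA, the lysosomal lipase for cholesteryl esters, was at −0.58 ± 0.29, and MYLIP, a ubiquitin ligase induced by the sterol sensor LXR, was at 0.54, 0.23 and 1.77 in pairs 1, 2 and 3, a mean of 0.85 that was 0.38 over pairs 1 and 2.

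**Figure D4:**
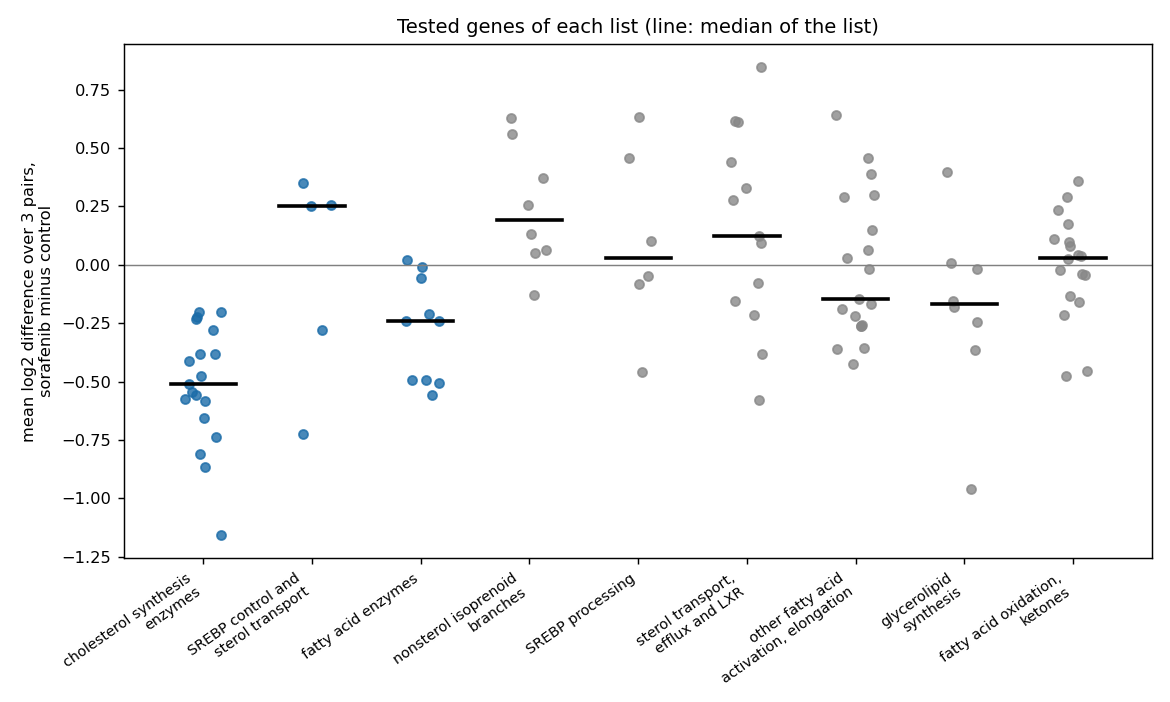
Mean log2 difference over 3 pairs, sorafenib minus control, for each tested gene (points) of the synthesis and control groups (blue) and of 6 neighbouring lists (grey), with a line at each list's median. The medians are −0.51 for cholesterol synthesis enzymes, −0.24 for fatty acid enzymes, 0.19 for nonsterol isoprenoid branches and 0.03 for fatty acid oxidation and ketones.

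On the fatty acid side, 19 tested genes of activation, elongation and NADPH supply had a median of −0.14. Throughout the 3 pairs 9 of them (47.4%) were lower and 5 (26.3%) higher, against 22.2% and 21.5% of all tested symbols. The 19 genes ran from SLC25A1, the mitochondrial citrate carrier that supplies ACLY, at −0.42 ± 0.19 to ACSL1, an acyl-CoA synthetase, at 0.64 ± 0.37. The 8 tested genes of glycerolipid synthesis had a median of −0.17, with GPAM, the acyltransferase that starts triglyceride synthesis, at −0.96 ± 1.10 and PLIN2, a lipid droplet coat protein, at 0.40 ± 0.37. Fatty acid oxidation and ketone synthesis had a median of 0.03 over 18 tested genes, of which 2 (11.1%) were lower and 3 (16.7%) higher throughout the pairs. The lowest of them was CPT2, a carnitine palmitoyltransferase, at −0.48 ± 0.15. Hepatocyte markers had a median of −0.07 over 10 tested and ran in both directions, from −0.78 to 0.62. In all pairs 5 of the 10 (50%) were lower and 1 (10%) higher, against 22.2% and 21.5% of all tested symbols. ALB was at −0.55 ± 0.31, which is neither extreme of the list. The 5 tested markers of fibroblasts and stellate cells had a median of −0.64, with 3 lower in all pairs. The part of these in the lower enzyme levels was not tested.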

How the data were processed

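RNA of SNU761 cells was labelled and hybridised to 6 Illumina BeadChip arrays, 3 per group. Per the file headers, the authors deposited, for each of 34690 symbols and each array, a signal intensity described as non-normalized and a detection p-value; how probes of a gene were combined is not given in the sources used here, and a further deposited table of log2 values was not used: its sorafenib columns are filled for few symbols and do not match the intensities of those symbols, so it gives no check on the sorafenib values used here. Intensities were corrected with limma 3.58.1 in R 4.3.3 by normexp (offset 16), its background (mean 112 to 139, SD 20.1 to 31.8 intensity units) inferred through the p-values of 27247 symbols at which these were whole multiples of 1/770 (tolerance 0.001), then quantile-normalized and log2-transformed. A symbol was tested if 3 or more of the 6 arrays gave it a detection p under 0.05, which left 14641. On each array 13195 to 15227 symbols were detected; the number of arrays limits the precision.

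Groups were compared with limma (empirical Bayes, two-sided) with the replicate number as a block and Benjamini-Hochberg adjustment over all symbols tested, at 0.05; the paired trended fit adds a variance trend and robust estimation. Arrays were taken as pairs by their replicate number. Deviations from the group mean correlated at 0.904, 0.791 and 0.926 between arrays of the same number. Because the same replicate number stood apart in both groups, these correlations cannot decide how the remaining arrays pair. The outlying arrays shift both group means, and so the deviations of the remaining arrays, however those are matched. The genes, lists and fits were chosen with earlier results of these data known. The text names all 36 genes and, of each neighbouring list, any member called and the extreme in each direction, except for items that are not reported here. Older symbols were matched through RefSeq synonyms. The pipeline was tested on simulated data. Alternatives changed the block, variance model, background, offset, scaling and filter, or left out a replicate number.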

Additional observations from a re-analysis of the deposited data

How the results depend on the processing

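The direction of the 34 tested genes changed in 10 of 337 member and setting combinations, all for means near 0 or genes split by pair. With a background drawn from every symbol ACACB was at 0.044 and ME1 at −0.011, and ACACB was at 0.0041 without background correction. Leaving out 1 replicate number at a time gave −0.39 to 0.038 for MVD, −0.24 to 0.35 for ACACB, −0.061 to 0.14 for ME1, −0.22 to 0.11 for ELOVL5, −0.44 to 0.020 for CYP51A1 and −0.66 to 0.31 for SC5DL.

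The median over the tested genes stayed between −0.48 and −0.34 when a replicate number was left out. Then 22 to 26 genes were lower in both remaining pairs, a looser criterion than 3 pairs. Without replicate 3 these were 22 of 34 (64.7%), against 32.6% of all tested symbols. The replicate-block fit called 0 of 14641 symbols, 141 symbols and 2 pathway genes with trend and robust estimation, 3 symbols without background correction, and 0 to 320 without 1 replicate number, and 0 pathway genes in these last settings. The paired trended fit called 2 pathway genes and 141 symbols. Without the replicate block it called 0 and 0, and with a background drawn from every symbol 0 and 0. Without the detection filter it called 1 of 36 pathway genes and 98 of 34690 symbols. Among symbols detected on all 6 arrays it called 4 of 31 pathway genes (FDPS and INSIG1 added) and 211 of 9817 symbols. With 1 replicate number left out it called 0 to 6 pathway genes and 1 to 1375 symbols. These were 6 and 1375 without replicate 3, 0 and 1 without replicate 2, and 1 and 49 without replicate 1. Without the block, 310 symbols had an unadjusted p under 0.05. The causes were not tested. With a background drawn from every symbol the mean moved to −0.083 for FADS2, −0.11 for MVK, 0.014 for SREBF2 and 0.011 for STARD4, and to −1.42 for HMGCS1 and −1.01 for INSIG1.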
